A study of Mus musculus with 10 samples.

Results

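Endothelial and VEGF-angiopoietin receptor genes were described in the renal cortex of 10 mice. The set holds 10 genes, each read by its probe set of highest mean: the receptor genes Kdr, Flt1 and Tek, the ligand gene Vegfa, the endothelial surface and junction genes Pecam1, Cdh5 and Emcn, the glomerular endothelial gene Ehd3, the fenestral diaphragm gene Plvap and the nitric oxide synthase gene Nos3. These are 10 of the 18193 genes that a probe set with a single symbol represents, and all 10 were among the 11486 genes tested. The mice were of the FVB/N strain and 20 weeks old. Each had undergone 2/3 kidney ablation and later a uninephrectomy. Treatment lasted 6 weeks. It began when 6 weeks had passed since the ablation and 4 since the uninephrectomy. In one group of 5 mice the drug was aliskiren, an inhibitor of renin, at 50 mg/kg per day. The other 5 mice received losartan, a blocker of the type 1 angiotensin II receptor, at 500 mg/l. Both groups share the ablation and the uninephrectomy, and mice without a drug were not analysed here, so the comparison is of aliskiren against losartan.

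VEGF-A is made in the kidney by podocytes and tubule cells and acts on neighbouring capillaries. Its receptor encoded by Kdr carries most of the signal for endothelial survival and fenestration, while the product of Flt1 binds VEGF-A tightly, signals weakly and also exists as a soluble trap. Tek encodes Tie2, the receptor of the angiopoietins, which keeps vessels quiescent when angiopoietin-1 binds. Loss of capillaries around tubules and in glomeruli is a known feature of remnant kidneys. Ehd3 is known for its restriction to glomerular endothelium in the mouse kidney. Plvap forms the diaphragms of fenestrated peritubular capillaries and is absent from most mature glomerular endothelium.

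RefSeq promoter windows were available for 6 of the 10 genes. The 250 bases before the start are shown for the 3 receptor genes and for Emcn, because these genes varied closely together across mice. Each is written 5′ to 3′ on the strand of the gene in build GRCm38.p6, with 2 motifs in capitals: AGGAAG on either strand (CTTCCT when read on the other), a core bound by ETS factors that drive many endothelial genes, and the palindrome TGACGTCA, the cyclic AMP response element. These motifs were chosen after the sequences were seen and do not overlap.
Flt1: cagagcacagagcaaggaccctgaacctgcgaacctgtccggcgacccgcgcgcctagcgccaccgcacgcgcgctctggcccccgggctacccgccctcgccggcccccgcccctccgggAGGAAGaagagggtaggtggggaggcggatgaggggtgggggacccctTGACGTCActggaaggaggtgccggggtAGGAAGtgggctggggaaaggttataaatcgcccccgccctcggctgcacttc
Emcn: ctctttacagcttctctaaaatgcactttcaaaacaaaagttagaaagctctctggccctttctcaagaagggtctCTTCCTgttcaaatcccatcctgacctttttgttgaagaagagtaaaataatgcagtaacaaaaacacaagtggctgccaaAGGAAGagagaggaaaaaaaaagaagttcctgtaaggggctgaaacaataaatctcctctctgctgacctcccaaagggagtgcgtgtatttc
Kdr: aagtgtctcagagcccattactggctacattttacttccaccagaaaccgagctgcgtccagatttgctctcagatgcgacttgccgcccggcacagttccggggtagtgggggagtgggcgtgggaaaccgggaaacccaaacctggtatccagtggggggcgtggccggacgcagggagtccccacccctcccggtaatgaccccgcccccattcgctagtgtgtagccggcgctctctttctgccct
Tek: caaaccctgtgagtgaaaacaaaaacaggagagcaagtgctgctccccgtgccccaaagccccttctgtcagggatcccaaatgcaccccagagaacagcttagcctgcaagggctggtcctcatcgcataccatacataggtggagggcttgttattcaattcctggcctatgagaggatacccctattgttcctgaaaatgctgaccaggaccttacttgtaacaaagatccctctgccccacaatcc
The Flt1 window lies on the minus strand at chr5:147726012-147726261. Counted back from the start, its AGGAAG copies begin at -129 and -53 and its TGACGTCA at -81. The Emcn window, chr3:137340828-137341077 on the plus strand, holds AGGAAG motifs that begin at -174 and -93. The Kdr window, chr5:75978456-75978705 on the minus strand, and the Tek window, chr4:94739039-94739288 on the plus strand, hold neither string. The windows of Ehd3 and Vegfa, not shown, hold neither string. The 6 genes have 7 windows in all, and 2 of the 7 hold AGGAAG. Of all 32851 promoter windows of this length, 29.5% hold AGGAAG on either strand and 1.55% hold TGACGTCA. Other forms of the ETS site were not searched, so a window without AGGAAG may still hold one. A match is a description of the sequence only.

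Values are log2 RMA expression as deposited by the authors, 1 value per probe set and array. Proximal tubule markers (10 of 10) and thick ascending limb markers (6 of 6) passed the level filter. Fat transcripts stood apart in 3 mice. The adipocyte hormone gene Adipoq was at 7.35 in aliskiren mouse 2, 9.90 in aliskiren mouse 3 and 12.96 in losartan mouse 3, and between 3.17 and 3.96 in the other 7 mice. Of 11 perirenal fat genes 9 had a probe set and 5 were tested, with list means from 6.93 to 9.24 with aliskiren and from 6.93 to 11.38 with losartan. Losartan mouse 3 also had the highest Havcr1, the transcript of the tubular injury marker KIM-1, at 10.76. The same mouse had the highest list means for pericyte and smooth muscle genes (7.40 to 7.80 with aliskiren, 7.23 to 8.61 with losartan) and for macrophage genes (7.33 to 9.02 with aliskiren, 6.497 to 9.74 with losartan). Fat tissue is itself rich in endothelium. With the fat list mean as a covariate in limma, all 10 endothelial genes still had a lower value with aliskiren, with differences of -0.28 for Kdr, -0.30 for Flt1, -0.28 for Tek and -0.26 for Emcn. Leaving out the 3 mice gave smaller differences for these genes, which are printed with each of them below. The part of pericytes and macrophages in the endothelial values was not tested.

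All 10 genes had a lower mean with aliskiren, and none passed the test. In limma, which fits every gene and borrows variance across genes, 0 of the 10 genes and 0% of the 11486 genes tested reached a Benjamini-Hochberg adjusted p under 0.05. The adjusted p of the 10 genes lay between 0.945 and 0.996. At an unadjusted p under 0.05 there was 1 gene of the set, Flt1, against 542 genes or 4.72% of all tested, and 2.53% of all tested were lower with aliskiren at that level. This count moved with 1 mouse: without losartan mouse 4 it was 6 genes of the set (Pecam1, Flt1, Kdr, Tek, Emcn and Plvap), against 804 genes or 7% of all tested, with a lowest adjusted p of 0.695. Without aliskiren mouse 1 it was 3 of the set (4.63% of all), with array weights 3 (6.11%), with the fat list mean as a covariate 1 (6.14%) and with the podocyte list mean as a covariate 4 (5.73%), and 0 genes passed after adjustment in each. An ordinary t statistic without moderation gave 573 genes at that level and 0 after adjustment. A lower mean was common in these data, since 53.8% of all genes tested had one. The median difference, aliskiren minus losartan, was -0.24 over the 10 genes and -0.01 over all genes. In no gene of the set were the groups separate, against 0.914% of all genes tested. In bulk tissue, fewer endothelial cells and less RNA per endothelial cell cannot be told apart.

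**Figure D1:**
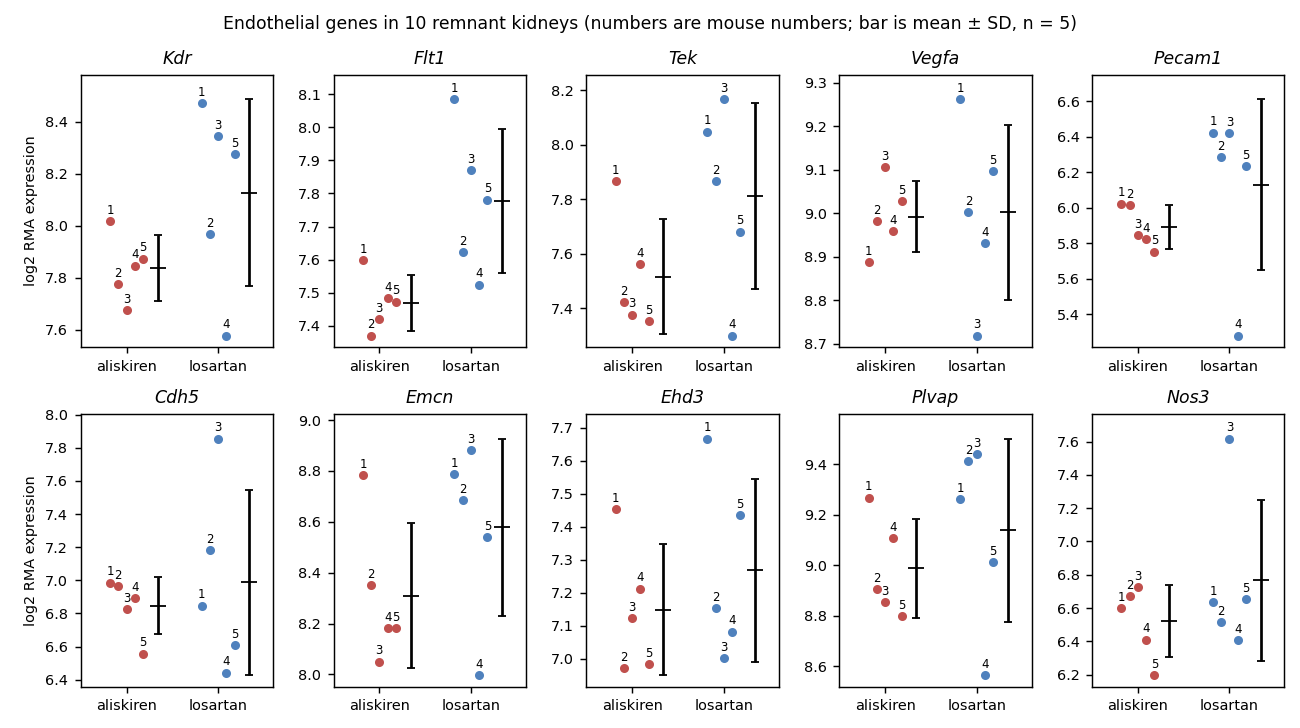
Log2 RMA expression (vertical axis) of the 10 genes in each mouse, aliskiren at left and losartan at right, with mouse numbers beside the points and a bar for the mean ± SD of 5 mice. Aliskiren mice have the smaller spread for every gene; 4 of them lie below every losartan mouse for Flt1, and losartan mouse 4 is lowest for Kdr at 7.58 and Pecam1 at 5.28.

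The receptor genes had the lowest unadjusted p of the set. Flt1 was at 7.60, 7.37, 7.42, 7.48 and 7.47 in aliskiren mice 1 to 5, against 8.08, 7.62, 7.87, 7.52 and 7.78 in losartan mice 1 to 5. Of the aliskiren mice, 4 lay below every losartan mouse, and aliskiren mouse 1 overlapped with losartan mouse 4. The difference was -0.31 (SE 0.10, 95% interval from -0.53 to -0.09), an aliskiren level 0.808 times that with losartan, with a limma adjusted p of 0.945. Without losartan mouse 3 it was -0.28, and without the 3 mice with fat transcripts it was -0.24. Flt1 has 4 probe sets, and all of them had a lower mean with aliskiren. The others differed by -0.26 (SE 0.13), -0.32 (SE 0.15) and -0.18 (SE 0.09), and the last of these lay below the level filter. Probe sets of Flt1 tracked each other across the 10 mice, with r between 0.73 and 0.88 against the one of highest mean, so the lower values did not depend on a single probe set.

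Kdr was at 8.02, 7.78, 7.67, 7.85 and 7.87 in aliskiren mice 1 to 5, against 8.47, 7.97, 8.34, 7.58 and 8.28 in losartan mice 1 to 5. All 5 aliskiren mice lay below the losartan median, but losartan mouse 4 was the lowest of all. The difference was -0.29 (SE 0.15, 95% interval from -0.63 to 0.05, limma adjusted p = 0.945). It was -0.43 without losartan mouse 4 and -0.20 without losartan mouse 1. Without the 3 mice with fat transcripts it was -0.16. The single Kdr probe set leaves no second reading of this gene.

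Tek was at 7.87, 7.42, 7.38, 7.56 and 7.35 in aliskiren mice 1 to 5, against 8.05, 7.87, 8.17, 7.30 and 7.68 in losartan mice 1 to 5. The groups overlapped through aliskiren mouse 1, which was high, and losartan mouse 4, which was the lowest. The difference was -0.30 (SE 0.16, 95% interval from -0.66 to 0.06, limma adjusted p = 0.945). It was -0.42 without losartan mouse 4, -0.21 without losartan mouse 3 and -0.13 without the 3 mice with fat transcripts. Means were 7.47 ± 0.09 with aliskiren and 7.78 ± 0.22 with losartan for Flt1 (SD, n = 5 each). For Kdr they were 7.84 ± 0.13 with aliskiren and 8.13 ± 0.36 with losartan, and for Tek 7.52 ± 0.21 with aliskiren and 7.81 ± 0.34 with losartan. The aliskiren means of the 3 receptor genes thus lay at 0.808, 0.818 and 0.815 times the losartan means for Flt1, Kdr and Tek.

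Vegfa, the ligand gene, showed no such offset. It was at 8.89, 8.98, 9.11, 8.96 and 9.03 in aliskiren mice 1 to 5, against 9.26, 9.004, 8.72, 8.93 and 9.10 in losartan mice 1 to 5. The aliskiren mice lay inside the losartan range, whose ends were losartan mouse 3 at the low and losartan mouse 1 at the high side. The difference was -0.01 (SE 0.09), and its 95% interval from -0.22 to 0.20 excludes a 1.5-fold change in either direction. The other Vegfa probe set differed by 0.02 (SE 0.14). The sign of a value this close to 0 turned under several settings.

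Among the junction and surface genes, Emcn encodes endomucin, a sialomucin of capillary and venous endothelium. It was at 8.78, 8.35, 8.05, 8.18 and 8.18 in aliskiren mice 1 to 5, against 8.79, 8.68, 8.88, 7.998 and 8.54 in losartan mice 1 to 5. Aliskiren mouse 1 lay with the 4 high losartan mice and losartan mouse 4 lay below all others. The difference was -0.27 (SE 0.18, limma adjusted p = 0.948), -0.41 without losartan mouse 4, -0.19 without losartan mouse 3 and -0.12 without the 3 mice with fat transcripts. Pecam1, the platelet endothelial adhesion molecule of cell junctions, was at 6.02, 6.01, 5.84, 5.82 and 5.75 in aliskiren mice 1 to 5, against 6.42, 6.28, 6.42, 5.28 and 6.23 in losartan mice 1 to 5. Every aliskiren mouse lay below 4 of the losartan mice and above losartan mouse 4, which stood apart. The Pecam1 difference was -0.24 (SE 0.20, limma adjusted p = 0.949), and -0.45 without losartan mouse 4. It was -0.16 without losartan mouse 3 and -0.19 without the 3 mice with fat transcripts.

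Cdh5 and Nos3 depended on losartan mouse 3. Cdh5, which encodes VE-cadherin of endothelial adherens junctions, was at 6.99, 6.97, 6.83, 6.89 and 6.56 in aliskiren mice 1 to 5, against 6.85, 7.18, 7.86, 6.44 and 6.61 in losartan mice 1 to 5. Losartan mouse 3 lay above all other mice, while losartan mice 4 and 5 were among the 3 lowest. The Cdh5 difference of -0.14 (SE 0.23, limma adjusted p = 0.969) turned to 0.08 without losartan mouse 3 and was -0.28 without losartan mouse 4. Nos3, the endothelial synthase of nitric oxide, was at 6.60, 6.67, 6.73, 6.41 and 6.20 in aliskiren mice 1 to 5, against 6.63, 6.52, 7.62, 6.41 and 6.65 in losartan mice 1 to 5. The other 4 losartan mice, from 6.41 to 6.65, lay inside the aliskiren range. The Nos3 difference was -0.25 (SE 0.21, limma adjusted p = 0.949) with all mice and -0.03 without losartan mouse 3. It was -0.15 (SE 0.11) without the 3 mice with fat transcripts, and -0.18 (SE 0.10) with the fat list mean as a covariate. In that mouse, Cdh5 lay 0.94 and Nos3 0.97 above their 10-mouse means, the largest upward deviations of the set, and Adipoq was at 12.96.

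Ehd3 and Plvap mark different capillary beds, and neither differed by more than its error in its probe set of highest mean. Ehd3, a membrane-trafficking ATPase, was at 7.45, 6.97, 7.12, 7.21 and 6.98 in aliskiren mice 1 to 5, against 7.67, 7.15, 7.0004, 7.08 and 7.44 in losartan mice 1 to 5. Losartan mouse 3 was the lowest of its group for Ehd3, although it was the highest of all mice for Tek, Cdh5, Emcn, Plvap and Nos3. The Ehd3 difference was -0.12 (SE 0.14, 95% interval from -0.43 to 0.19). It was -0.19 without losartan mouse 3 and -0.02 without losartan mouse 1. The other Ehd3 probe set differed by -0.19 (SE 0.12), and its r with the first over the 10 mice was only 0.55. Plvap was at 9.27, 8.91, 8.85, 9.11 and 8.80 in aliskiren mice 1 to 5, against 9.26, 9.41, 9.44, 8.56 and 9.01 in losartan mice 1 to 5. Aliskiren values lay within the losartan range, since losartan mouse 4 was lowest and losartan mouse 3 highest. The Plvap difference was -0.15 (SE 0.17, 95% interval from -0.52 to 0.22). It was -0.29 without losartan mouse 4, -0.08 without losartan mouse 3 and -0.00481 without the 3 mice with fat transcripts.

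The pair Ehd3 and Kdr, taken here as the glomerular members, was set against Plvap as deviations from each gene's 10-mouse mean. Kdr had r = 0.71 with Plvap and r = 0.60 with Ehd3 over the 10 mice. Whether the pair reads glomeruli apart from other capillaries was not tested. The mean deviation of the pair was -0.10 ± 0.15 with aliskiren and 0.10 ± 0.28 with losartan (SD, n = 5 each). That of Plvap was -0.08 ± 0.20 with aliskiren and 0.08 ± 0.36 with losartan. Pair minus Plvap ran from -0.11 to 0.10 in aliskiren mice and from -0.38 to 0.31 in losartan mice. Its difference between drugs was -0.05 (SE 0.16), which is smaller than the spread between losartan mice, and it was -0.13 (SE 0.17) without losartan mouse 3. In losartan mice 2 and 3 Plvap deviated upward by more than the pair, and in losartan mice 1, 4 and 5 the pair stood above Plvap.

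**Figure D2:**
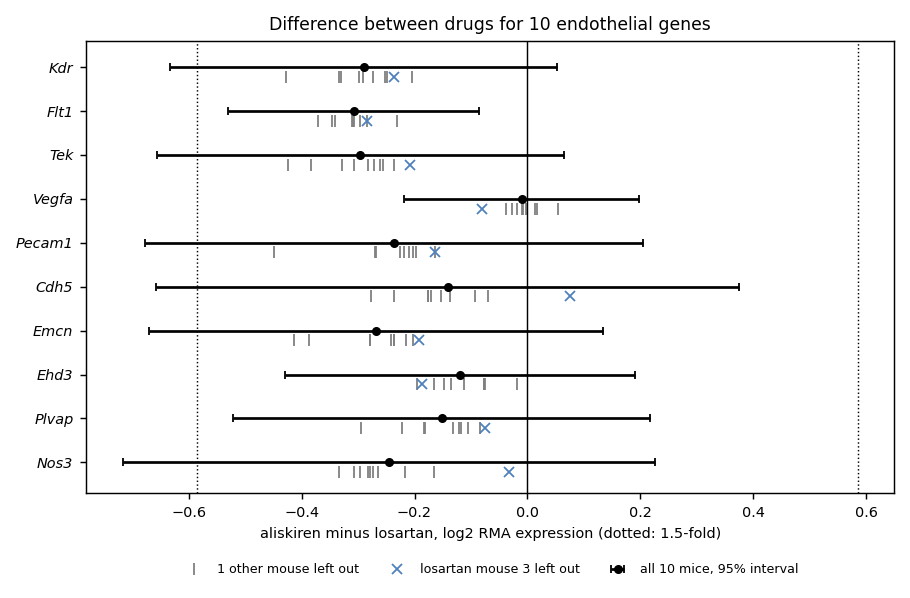
Difference between drugs on the log2 scale (horizontal axis) for each gene, as a point with its 95% interval over all 10 mice; ticks are fits without 1 other mouse, crosses those without losartan mouse 3, and dotted lines mark 1.5-fold. Intervals of Flt1, Vegfa, Ehd3 and Plvap lie within the dotted lines, and the cross of Cdh5 lies above 0 at 0.08.

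The precision differed between the genes. The 95% interval lay within 1.5-fold in both directions for 4 of the 10 genes (Flt1, Vegfa, Ehd3 and Plvap), against 87.7% of all genes tested. For Kdr, Tek, Pecam1, Cdh5, Emcn and Nos3 a fall by more than 1.5-fold stayed inside the interval. The median residual SD was 0.29 over the 10 genes and 0.14 over all genes. It was lowest for Vegfa at 0.15 and highest for Cdh5 at 0.41. Losartan mice had a larger SD than aliskiren mice for 10 of the 10 genes, against 73.1% of all genes tested. Without losartan mouse 3 this was so for 9 of the 10 genes, against 56.2% of all genes.

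Single mice were high or low across most of the set. Losartan mouse 4 was the lowest of all 10 mice for 6 of the 10 genes (Kdr, Tek, Pecam1, Cdh5, Emcn and Plvap), against 13.7% of all genes tested. Losartan mouse 3 was the highest for 5 (Tek, Cdh5, Emcn, Plvap and Nos3), against 29.2% of all genes, and losartan mouse 1 for the other 5 (Kdr, Flt1, Vegfa, Pecam1 and Ehd3), against 8.95% of all genes. The highest value of every gene thus fell on losartan mouse 1 or 3. Averaged over the 10 genes, aliskiren mice deviated from the 10-mouse mean by -0.24 to 0.09, and losartan mice by -0.34 (mouse 4) to 0.38 (mouse 3). The podocyte list mean lay between 8.19 and 8.90 in aliskiren mice and between 7.80 and 8.82 in losartan mice, with losartan mouse 4 the lowest. The podocyte list mean was also entered as a covariate in limma, which leaves 1 degree of freedom fewer. All 10 genes had a lower value with aliskiren in that fit. The differences were then -0.26 for Tek (SE 0.05), -0.29 for Flt1 (SE 0.07), -0.22 for Emcn (SE 0.07) and -0.26 for Kdr (SE 0.10), and the lowest limma adjusted p of the set was 0.815. The list mean itself had r from 0.75 to 0.90 with Kdr, Tek, Emcn, Pecam1 and Plvap. This fit therefore cannot tell glomerular content from variation that the endothelial genes share.

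**Figure D3:**
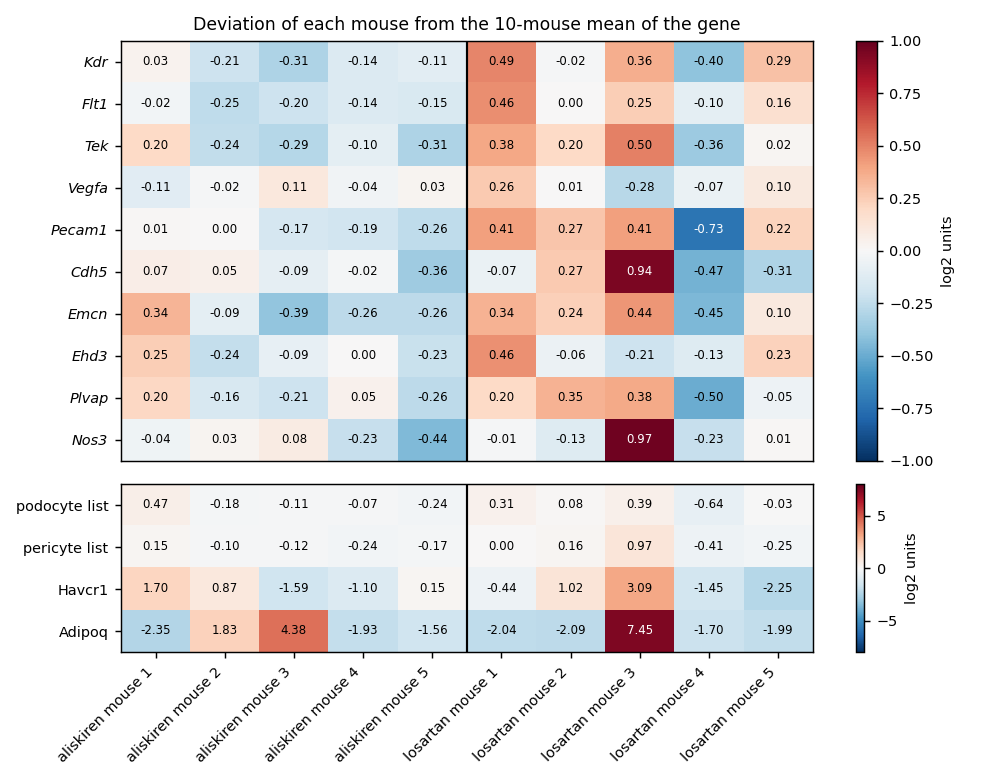
Deviation of each mouse (columns, aliskiren left of the line and losartan right) from the 10-mouse mean in log2 units, for the 10 genes above and for the podocyte list, the pericyte list, Havcr1 and Adipoq below, on their own colour scale. Losartan mouse 3 is high for Cdh5 (0.94) and Nos3 (0.97) but not for Ehd3 (-0.21), and losartan mouse 4 is low for Pecam1 (-0.73).

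Across the 10 mice Kdr, Flt1, Tek, Pecam1, Emcn and Plvap varied together, with r from 0.58 to 0.95 between them. Relations were computed for the 45 pairs of genes and for each gene with the mean of 7 podocyte genes and with Havcr1, 65 in all, with two-sided permutation p-values adjusted together. Of the 45 pairs, 38 had a positive Pearson r, with a median of 0.58, and 15 passed at an adjusted p under 0.05. Tek and Emcn had r = 0.95 (Spearman rho 0.98, permutation adjusted p = 0.00468 for r and 0.00065 for rho). Tek and Plvap had r = 0.92 (rho 0.94), and Kdr and Flt1 also had r = 0.92 (rho 0.84), with a permutation adjusted p of 0.00468 for both values of r. With drug group means subtracted, these 3 values of r were 0.94, 0.94 and 0.92. Without the 2 mice farthest from the median of the first gene, losartan mice 1 and 3, they were 0.93, 0.93 and 0.81. Of the 15 pairs, 2 (Tek with Emcn and Tek with Plvap) passed for r, for rho and without the 2 farthest mice. The other pairs did not pass in all of these ways with 8 mice, though r stayed near its value for some, as for Pecam1 and Emcn (0.87 with all mice, 0.85 without losartan mice 1 and 4).

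Ehd3 was related most closely to Flt1 (r = 0.66) and Kdr (r = 0.60), and less so to Plvap (r = 0.35) and Cdh5 (r = -0.19). None of these passed (permutation adjusted p = 0.0882, 0.13, 0.406 and 0.682, with rho 0.60, 0.52, 0.39 and 0.05). Between Kdr and Plvap lay Vegfa (r = 0.55), Tek (r = 0.48), Emcn (r = 0.47) and Pecam1 (r = 0.41), which did not pass either. Nos3 had r = -0.12 with Ehd3 and did not pass. Without losartan mice 1 and 3, r was 0.77 for Flt1, 0.71 for Kdr and 0.72 for Tek, so the higher values were not particular to Flt1 and Kdr. For Vegfa r fell to -0.09 without the same 2 mice. The 2 mice left out, those farthest from the median of the first gene, were others for the remaining genes. Without losartan mice 3 and 4, r was 0.72 for Emcn and -0.01 for Cdh5. It was 0.11 for Pecam1 without losartan mice 1 and 4, and 0.10 for Plvap without aliskiren mouse 1 and losartan mouse 1. Differences between these correlations were not tested. Cdh5 and Nos3 had r = 0.85 (permutation adjusted p = 0.0432) but rho 0.47, and r was 0.31 without losartan mice 3 and 4. Without losartan mouse 3 alone r was 0.41 (exact permutation p = 0.28), and without losartan mouse 4 alone it was 0.86 (exact permutation p = 0.0249), so the relation rests on losartan mouse 3. Vegfa had r between -0.59 and 0.55 with the other genes, and none of its relations passed.

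**Figure D4:**
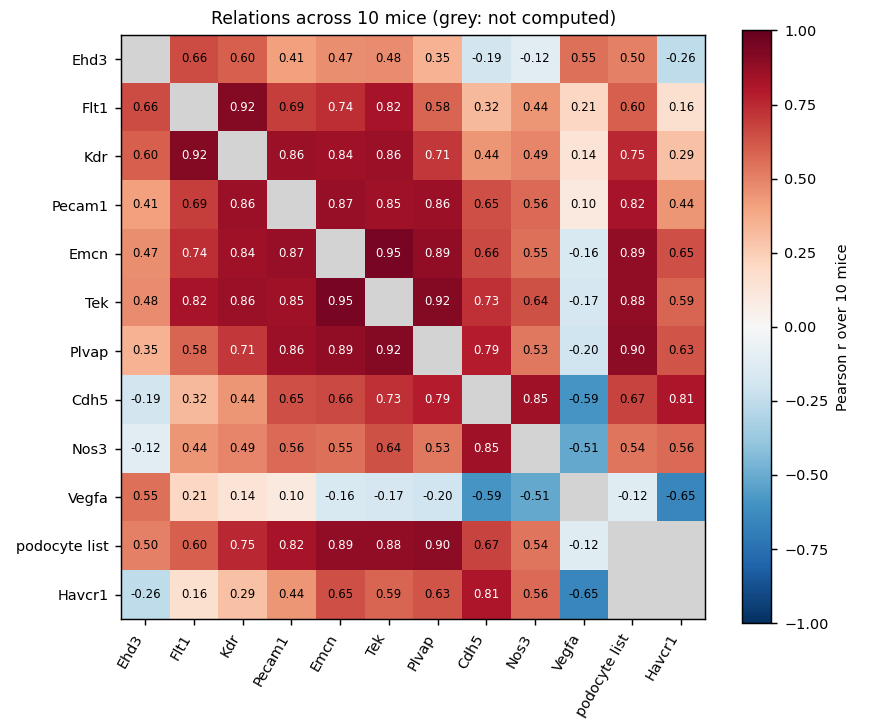
Pearson r over 10 mice for each pair of genes and for the genes with the podocyte list mean and Havcr1 (colour and number; grey cells were not computed). Kdr, Flt1, Tek, Pecam1, Emcn and Plvap form a block of positive values, with 0.95 for Tek and Emcn, and Vegfa has values from -0.65 to 0.55.

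The podocyte list was meant to stand in for glomerular content, which was not itself measured. Whether the list mean reads glomerular content was not tested. Plvap, the diaphragm gene, had a higher r with it than Ehd3, the glomerular gene. Of the 12 listed podocyte genes 9 had a probe set and 7 were tested, and 1 of these, Podxl, is also made by endothelium. Whether podocytes alone make the others was not tested. Nphs1 and Wt1 lay below the level filter, so the list mean leaves them out. Losartan mouse 3 was the lowest of all mice for Nphs1, at 4.94, though its list mean was 8.82. Losartan mouse 4, with the lowest list mean at 7.80, lay above the aliskiren mean of 5.41 for Nphs1. Aliskiren mouse 1 was highest both for Wt1 and for the list mean. Plvap had r = 0.90 with the list mean (rho 0.92), Emcn 0.89 (rho 0.90), Tek 0.88 (rho 0.95), Pecam1 0.82 (rho 0.82) and Kdr 0.75 (rho 0.81). These 5 relations passed, with permutation adjusted p from 0.00468 to 0.0354. Without aliskiren mouse 1 and losartan mouse 4 the values of r were 0.87 for Plvap, 0.88 for Emcn, 0.98 for Tek, 0.88 for Pecam1 and 0.82 for Kdr, and those of Tek, Emcn and Pecam1 still passed. Ehd3, the glomerular gene, had r = 0.50 (rho 0.61), which did not pass (permutation adjusted p = 0.214). Ranked among all 11486 genes by r with the podocyte list, Plvap was at place 50, Emcn at 56, Tek at 69, Pecam1 at 270, Kdr at 646 and Ehd3 at 2655. Without Podxl the list placed Plvap at 70, Emcn at 77 and Tek at 100. Many other genes thus followed the podocyte list as closely as Kdr did.

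With the injury transcript Havcr1, 1 of the 10 relations passed. Cdh5 had r = 0.81 (rho 0.79, permutation adjusted p = 0.0146 for r and 0.0335 for rho). It did not pass with drug group means subtracted (r = 0.82, permutation adjusted p = 0.059). Nor did it without losartan mice 3 and 5 (r = 0.58, permutation adjusted p = 0.282). Emcn had 0.65 (rho 0.64), Plvap 0.63 (rho 0.66) and Tek 0.59 (rho 0.55), with permutation adjusted p from 0.0993 to 0.14. Vegfa had the most negative value, r = -0.65 (rho -0.59, permutation adjusted p = 0.0951), and r was -0.32 without losartan mice 3 and 5. Ehd3 had r = -0.26 and Flt1 r = 0.16. Adipoq splits the mice into clusters too small for a correlation, so none was computed.

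The genes most like Kdr and Plvap over the 10 mice were mostly outside the endothelial lists used here. Whether endothelium makes them was not tested. By Pearson r with drug group means subtracted, Kdr was followed by Tmem204 (0.97), Dusp6 (0.97), Atxn7 (0.96), Crebbp (0.96) and Rnase4 (0.94). Flt1 was at place 11 with 0.92, Pecam1 at 68, Tek at 110 and Ehd3 at 1246. Plvap was followed by Heatr5a (0.97), Arl14ep (0.97), Meis2 (0.96), Npc1 (0.95) and Dennd11 (0.95), and Tek came next at place 6 with 0.94. Over 10 mice and 11486 genes such values describe these samples only. By these places Kdr stood nearer to Flt1 than to Tek, and Plvap nearer to Tek than to Flt1, which was at place 2330. By rho over the 10 mice the order for Kdr was the other way, with 0.84 for Flt1 and 0.88 for Tek. These differences were not tested.

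Other genes of the VEGF and angiopoietin pathway had a median difference nearer to 0 than the 10 genes. Of 24 listed genes 18 were tested, 14 of them with a lower mean with aliskiren, with a median difference of -0.09 against -0.01 over all genes, and 0 passed limma's adjusted threshold or an unadjusted p under 0.05. The lowest p values belonged to Pgf, which encodes the Flt1 ligand placental growth factor, at -0.12 (SE 0.06), to the receptor gene Notch1 at -0.31 (SE 0.17), and to Epas1, which encodes the hypoxia-inducible factor of endothelium, at -0.12 (SE 0.07). Notch1 was at -0.15 without losartan mouse 3. The Tek ligands are named outside the rule, for their role, after their values were seen, and neither passed the test. Angpt1, the activating ligand, was at 7.36 ± 0.10 with aliskiren and 7.50 ± 0.27 with losartan (SD, n = 5 each), a difference of -0.14 (SE 0.12), or -0.07 without losartan mouse 3. Angpt2, which is mostly a context-dependent antagonist, was at 6.42 ± 0.25 with aliskiren and 6.23 ± 0.24 with losartan, a difference of 0.19 (SE 0.14), or 0.27 without that mouse. Without losartan mouse 3 the list had 10 of 18 genes lower and a median of -0.02, and 1 gene was at an unadjusted p under 0.05.

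Further pan-endothelial genes leaned the same way as the receptor genes. Of 31 listed 26 were tested and 20 had a lower mean with aliskiren, with a median difference of -0.16, 1 gene at an unadjusted p under 0.05 and 0 past limma's adjusted threshold. The adhesion receptor gene Adgrf5 differed by -0.30 (SE 0.13, limma adjusted p = 0.945), Mmrn2, a matrix glycoprotein of endothelium, by -0.23 (SE 0.11), and the endothelial transcription factor gene Sox7 by -0.25 (SE 0.13). Without losartan mouse 3 they were at -0.21, -0.19 and -0.21. The list then had 17 of 26 genes lower, a median of -0.08 and 0 genes at an unadjusted p under 0.05, where 50.6% of all genes were lower. Without the 3 mice with fat transcripts 17 of 26 were lower, with a median of -0.04 against -0.005 over all genes. With all mice, 6 of the 26 had a higher mean with aliskiren, and the 3 genes named are those of lowest p. The median of the larger set thus had the same sign as that of the 10 genes, at a smaller size.

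Lists for single vascular beds were short and mixed. Of 5 further glomerular endothelial genes tested, 3 were lower, with a median of -0.05, and 0 were lower without losartan mouse 3. Smad6, an inhibitory SMAD gene, was at -0.09 (SE 0.18), the lipoprotein lipase gene Lpl at -0.13 (SE 0.30) and Sema5a at 0.06 (SE 0.26), against 0.03, 0.16 and 0.26 without that mouse. Lpl is also a fat gene. Of 5 further peritubular genes 5 were lower, with a median of -0.10, and 4 without losartan mouse 3. Rgcc was at -0.62 (SE 0.39), or -0.24 without that mouse, Igfbp7 at -0.10 (SE 0.09) and Jup at -0.07 (SE 0.06). Arterial genes were lower in 2 of 5 cases, among them the elastic fibre gene Fbln5 at -0.39 (SE 0.21), with Unc5b at 0.07 (SE 0.11) and Sema3g at 0.07 (SE 0.19). Of the venous genes tested, Ephb4 was at -0.13 (SE 0.06) and Nr2f2 at 0.03 (SE 0.07). Of the lymphatic list only Pdpn was tested, at -0.21 (SE 0.23), or 0.00280 without losartan mouse 3, while the defining genes Lyve1 and Prox1 lay below the level filter. Activated endothelium genes were lower in 2 of 6 cases, with Esm1 at 0.21 (SE 0.22), Icam1 at -0.17 (SE 0.31) and Apln at -0.02 (SE 0.06). Without losartan mouse 3, Icam1 was at 0.12 and Esm1 at 0.05, the arterial list had 1 of 5 genes lower and the activated list again 2 of 6.

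Genes of nitric oxide signalling other than Nos3 were lower in 8 of 13 cases, with a median of -0.03, but in 6 of 13 without losartan mouse 3, with a median of 0.08. Hsp90aa1, a chaperone that assists the synthase, had the lowest p at 0.26 (SE 0.11, limma adjusted p = 0.945), in the direction opposite to Nos3. The caveolin gene Cav1 was at -0.50 (SE 0.35), or -0.13 without losartan mouse 3, and Ddah2, whose product breaks down an inhibitor of the synthase, at -0.19 (SE 0.14), or -0.07 without that mouse. Pericyte and smooth muscle genes, of cells that wrap the vessels, were lower in 12 of 12 cases with a median of -0.18, but in 5 of 12 cases without losartan mouse 3, with a median of 0.03. Kcnj8 was at -0.32 (SE 0.14), Cspg4 at -0.19 (SE 0.11) and Myh11 at -0.33 (SE 0.29), against -0.18, -0.08 and -0.03 without that mouse. Podocyte genes were lower in 5 of 7 cases with a median of -0.03, but in 3 of 7 without losartan mouse 3, with a median of 0.08. With all mice Actn4 was at -0.17 (SE 0.08), Podxl at -0.15 (SE 0.17) and Ptpro at -0.13 (SE 0.23). In the 10 genes, 9 stayed lower without losartan mouse 3, with a median of -0.17, and 9 without the 3 mice with fat transcripts, with a median of -0.12.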

How the data were processed

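Expression was measured in renal cortex RNA of 10 mice, 1 Affymetrix array per mouse. The deposited log2 values come from the RMA method, and the submitters' processing notes name Affymetrix Expression Console 1.1. RMA aligns the arrays, so an overall change in RNA amount is not visible. The 5 arrays per group limit the precision. The table held 45101 probe sets, 64 of them controls. Of the rest, 34945 had 1 gene symbol, 932 several and 9160 none. Genes were named from probe sets with 1 symbol, each by its probe set of highest mean. The level filter kept genes whose mean was at least 5.53, the median over probe sets other than controls.

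Drug was the sole term of a limma 3.58.1 fit under R 4.3.3, with moderated two-sided tests. P-values were adjusted by Benjamini-Hochberg over all 11486 genes. Correlations used 100000 permutations in numpy 2.4.6, or every permutation where fewer than 10 mice were left. The fit was tested on simulated data. The mean of the podocyte list was used to stand in for glomerular content, which was not itself measured, without a test that it does so. This choice was made after seeing the data. One planned item is not reported here. Members, lists and tests were chosen with earlier results of these data known. The rule for named genes took all members, up to 3 genes of lowest p per list, and the 5 genes most like Kdr and Plvap. No scan or slide label was used. Gene lists for proximal tubule, thick ascending limb, macrophages, red blood cells and tubular injury served as context: the number lower with aliskiren was 6 of 10, 1 of 6, 2 of 9, 1 of 1 and 4 of 7, in that order, with 0 genes past the adjusted threshold. Mouse numbers do not pair mice across drugs.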

Additional observations from a re-analysis of the deposited data

Results flagged for a closer look

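Within groups of 5 mice, 26 sets of values were screened for a mouse far from the others, and 4 were marked, where chance marks about 1 in 20. Pecam1 was at 5.28 in losartan mouse 4, with the other losartan mice between 6.23 and 6.42. Nos3 was at 7.62 in losartan mouse 3, with the other losartan mice between 6.41 and 6.65. The podocyte list mean was at 8.90 in aliskiren mouse 1, with the other aliskiren mice between 8.19 and 8.36. Adipoq was at 12.96 in losartan mouse 3, with the other losartan mice between 3.43 and 3.82.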

How the results depend on the processing

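Over the alternatives, 0 genes of the set and 0 genes in all passed limma's adjusted threshold, also at 0.1 and without each mouse in turn. The 233 differences recomputed for single genes kept their direction in 224 cases. Vegfa turned to 0.024 with the probe set of highest variance, 0.0067 with the mean of all probe sets and 0.0015 with array medians set equal, and ran from -0.081 to 0.055 when 1 mouse was left out. Cdh5 ran from -0.28 to 0.075 in the same way, turned to 0.040 without losartan mouse 3 and aliskiren mouse 1, and to 0.042 without the 3 mice with fat transcripts. The mean of its probe sets lay below the level filter. With the filter at the 75th percentile 4 genes of the set were tested and all 4 were lower. Of 65 relations, 21 passed with all mice, 10 with drug means subtracted and 5 without the 2 farthest mice, where fewer mice remain. Leaving out 1 mouse gave 15 to 24. The same mouse number in both groups is only a name: correlations of same-numbered mice ran from -0.23 to 0.42, and 2 of 5 aliskiren mice were closest to their own number. With the mouse number as a replicate block 0 genes passed, 450 instead of 542 had an unadjusted p under 0.05, and 10 of 10 genes of the set were lower. It changed no call. With 5 arrays per group, the 95% interval lay within 1.5-fold for only 4 of the 10 genes.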

Other observations

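The probe sets of a gene did not always read alike. The second Cdh5 probe set, with group means of 3.56 ± 0.10 with aliskiren and 3.58 ± 0.31 with losartan (SD, n = 5 each), lay below the level filter and had r = -0.85 over the 10 mice with the probe set used. The second Vegfa probe set had r = 0.66 with the first, at 7.60 ± 0.23 with aliskiren and 7.57 ± 0.25 with losartan. Tie1, the partner of Tek, and Vwf, a common endothelial marker, lay below the level filter. Tie1 was at 4.44 ± 0.21 with aliskiren and 4.79 ± 0.27 with losartan, and Vwf at 4.56 ± 0.33 with aliskiren and 4.79 ± 0.95 with losartan. These 2 genes were chosen after their values were seen.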
